A study of Mus musculus with 12 samples.

Results

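Lrrk2 is 1 gene of the 16383 in an RNA sequencing table of mouse kidney, found there by its gene name, and its level in all 12 libraries is described here together with the nephron, stromal and other genes whose levels went with it. The libraries fall into 4 groups of 3. KO I/R kidneys came from mice labelled Lrrk2-/- whose left kidney had 30 minutes of ischemia at 37 °C, reached through the flank, followed by reperfusion, with the other kidney removed. WT I/R kidneys had the same operation in mice labelled WT. KO sham kidneys came from Lrrk2-/- mice and WT sham kidneys from WT mice operated on alike but with no ischemia. The targeted allele, the deleted part of the gene, the strain, sex and age of the animals and the time of reperfusion were given in none of the sources used here. The design asks how ischemia and reperfusion (I/R) changes the kidney and whether Lrrk2 genotype alters it.

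LRRK2 is a large protein with leucine-rich repeats, a GTPase domain, a kinase domain and a WD40 domain. Its kinase phosphorylates small Rab GTPases that direct traffic between endosomes, lysosomes and the Golgi, and activating mutations are a cause of inherited Parkinson disease. In rodents the kidney is among the organs with most LRRK2, and loss of the gene is known there for enlarged lysosomes and pigment in proximal tubule cells, the cells that take up most of the filtered solutes.

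The gene (ENSMUSG00000036273) lies on chr15:91673175-91816120 in the table's coordinates, which match the plus-strand locus of the GRCm38 annotation GENCODE M21. That annotation gives 6 transcripts, of which 1 codes for protein, with 51 exons over 8275 bases and 2527 codons. The windows below were taken from RefSeq on GRCm38.p6. They run from 250 bases before to 50 bases after the start annotated in RefSeq, on the gene's strand. For Lrrk2 that start lies inside the locus given above and not at its beginning. Lrrk2 is shown because its level is the subject, Cyp51 and Aass because they were among the genes whose level followed that of Lrrk2 most closely, and Ercc1 because it ran opposite to it. They lie at chr15:91672974-91673273 (plus strand), chr5:4104648-4104947 (minus), chr6:23132937-23133236 (minus) and chr7:19344821-19345120 (plus), in the order printed. Capitals mark matches on either strand to the motif GGGCGG, known as the GC box, to the motif CCAAT, to TATAAA of core promoters, to AGGTCA, a half-site of nuclear receptors, to GTTAAT, a half-site of HNF1, or to CACGTG, an E-box.
Lrrk2: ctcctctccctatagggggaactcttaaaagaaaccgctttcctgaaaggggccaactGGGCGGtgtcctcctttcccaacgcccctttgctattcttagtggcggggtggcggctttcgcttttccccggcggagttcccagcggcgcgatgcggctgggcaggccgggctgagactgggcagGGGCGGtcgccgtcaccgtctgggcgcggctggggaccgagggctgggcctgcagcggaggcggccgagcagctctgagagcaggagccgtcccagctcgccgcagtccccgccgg
Cyp51: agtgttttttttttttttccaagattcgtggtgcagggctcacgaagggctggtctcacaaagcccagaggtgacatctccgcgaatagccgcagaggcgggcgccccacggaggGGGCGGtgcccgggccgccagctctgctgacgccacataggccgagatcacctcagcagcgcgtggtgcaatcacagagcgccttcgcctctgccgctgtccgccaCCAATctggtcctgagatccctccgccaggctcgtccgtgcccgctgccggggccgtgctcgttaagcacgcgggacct
Aass: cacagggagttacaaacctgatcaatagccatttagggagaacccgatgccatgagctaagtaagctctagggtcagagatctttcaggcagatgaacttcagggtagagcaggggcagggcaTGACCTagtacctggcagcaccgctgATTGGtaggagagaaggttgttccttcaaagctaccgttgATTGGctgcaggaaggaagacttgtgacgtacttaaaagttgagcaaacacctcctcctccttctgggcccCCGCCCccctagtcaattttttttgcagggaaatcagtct
Ercc1: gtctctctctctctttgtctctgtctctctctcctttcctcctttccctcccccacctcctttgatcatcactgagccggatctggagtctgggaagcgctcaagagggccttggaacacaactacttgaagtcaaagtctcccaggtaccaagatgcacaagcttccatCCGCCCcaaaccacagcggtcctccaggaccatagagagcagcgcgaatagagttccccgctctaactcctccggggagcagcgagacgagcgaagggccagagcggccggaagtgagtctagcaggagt
The Lrrk2 window holds 28 CpG dinucleotides and 68.7% G and C, against medians of 7 and 52.7% over 32851 windows of the same length, and 85.8% of those windows have fewer CpG. It has GGGCGG at 2 places, a motif found in 35.7% of all windows, and no match to the other 5 motifs. The Cyp51 window has as many CpG, 28, with GGGCGG and CCAAT once each. The Aass window has 5 CpG, CCAAT at 2 places and GGGCGG and AGGTCA at 1 place each, and the Ercc1 window has 13 CpG and GGGCGG at 1 place. Of all windows, 37.4% have CCAAT, 16.3% have AGGTCA, 13.6% have TATAAA, 7.10% have GTTAAT and 7.15% have CACGTG. The matches describe letters in the windows and say nothing of binding.

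Each library held between 4678827 and 5456261 counts over the genes of the table, and 5048 genes had enough counts to be tested. The kidney gene Umod, made by the thick ascending limb, was abundant in every library. It ranged from 5414 to 11276 CPM, the counts scaled to the library total. Havcr1, a marker of injured proximal tubule, was at 6293, 8181 and 6843 CPM in KO I/R, at 3091, 5338 and 4599 CPM in WT I/R, at most 230 CPM in KO sham and at most 21.8 CPM in WT sham. Several libraries stood apart. Mitochondrial genes took 24.7% of the counts in KO sham 3 and 5.64% to 10.7% in the other 11 libraries. KO sham 1 had the most Havcr1 of the sham libraries, at 230 against 1.07 to 21.8 CPM in the other 5, and the most Lcn2, at 124 against 6.58 to 21.8 CPM. The sum of its 5 tested injury genes, 1335 CPM, lay within the 618 to 1531 CPM of the other 5. KO sham 1 also had Acsm3 at 4.03 CPM, against 177 to 2784 CPM in the other 5, and Slc7a12 at 244 CPM, against 1.61 to 20.9 CPM. In mouse kidney Acsm3 is known to be higher in males and Slc7a12 higher in females. In KO I/R 2 the deposited counts and FPKM values came from different tallies: 936 genes had a count of 0 with FPKM above 0 and 533 the reverse, and no gene did so in the other 11 libraries. The labels do not say that each library is a separate animal, so p-values measure the spread between these samples.

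Lrrk2 RNA was detected in every library, those labelled knockout included. It was at 74.2, 56.5 and 146 CPM in KO I/R and at 58.3, 69.7 and 80.8 CPM in WT I/R, from 401, 235 and 793 counts and from 320, 381 and 464 counts. It was at 96.5, 319 and 55.5 CPM in KO sham, from 598, 1651 and 207 counts, and at 433, 257 and 362 CPM in WT sham, from 2053, 1284 and 1839 counts. The WT sham libraries lay above all 6 I/R libraries, while the KO sham libraries spanned nearly the whole range, with KO sham 2 between the WT sham libraries and KO sham 3 the lowest of all 12. The table counts reads per gene and not per exon, so it does not show whether the deleted part is missing, and the names KO I/R and KO sham stand below for the label alone.

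**Figure D1:**
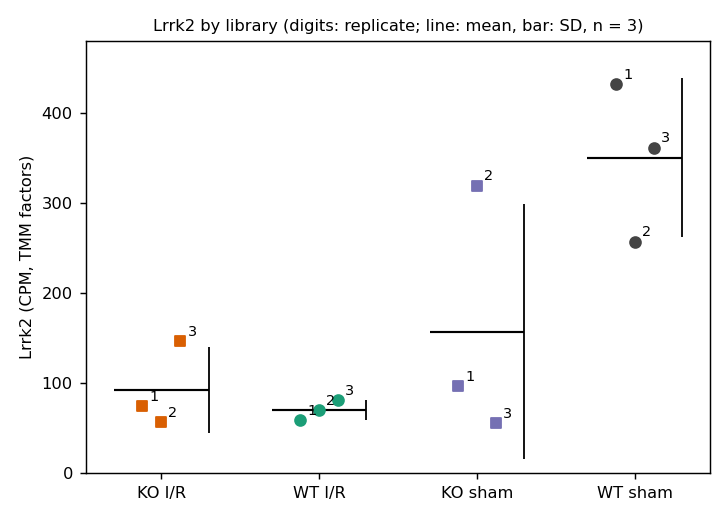
Lrrk2 in each library in CPM (linear axis from 0), by group; digits are replicate numbers, horizontal lines the group means and vertical bars the SD (n = 3). The WT I/R libraries sit between 58.3 and 80.8 CPM, KO sham spreads from 55.5 to 319 CPM, and the WT sham libraries sit between 257 and 433 CPM.

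Per length of transcript the level was modest. Lrrk2 had 1.79, 1.25 and 3.64 FPKM in KO I/R, 1.44, 1.70 and 1.97 FPKM in WT I/R, 2.53, 7.59 and 0.881 FPKM in KO sham, and 9.19, 5.53 and 8.62 FPKM in WT sham. In the 3 WT sham libraries and KO sham 2, between 20.5% and 30.0% of tested genes had a higher FPKM than Lrrk2. In the other 8 libraries that share was 42.5% to 62.1%. Read numbers worked back out of the KO I/R 2 FPKM values gave Lrrk2 291 reads and 55.3 CPM, against 235 counts and 56.5 CPM in the count column, so its low place there did not turn on which tally was used.

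Lrrk2 was lower after I/R in WT kidneys. It averaged 69.6 ± 11.3 CPM in WT I/R and 351 ± 88.3 CPM in WT sham (SD, n = 3 each), and the groups did not overlap. The log2 fold change was -2.33 with a standard error of 0.57 and an adjusted p of 0.0136 (edgeR quasi-likelihood test, Benjamini-Hochberg over the 5048 genes), in a comparison where 20.9% of all tested genes were called and 10.7% were called lower. In KO kidneys Lrrk2 averaged 92.4 ± 47.6 CPM after I/R and 157 ± 142 CPM after sham surgery (SD, n = 3 each), and the groups overlapped. There the log2 fold change was -0.77 (SE 0.54, 95% interval -1.95 to 0.42, adjusted p 0.323), with 23.5% of all genes called. The difference between the I/R responses of KO and WT kidneys was 1.57 on the log2 scale (SE 0.77, 95% interval -0.11 to 3.24, adjusted p 0.968), so a weaker response in KO kidneys was not shown. Averaged over genotype, the I/R change of Lrrk2 was -1.55 (SE 0.39, 95% interval -2.40 to -0.70, adjusted p 0.00807), where 40.5% of all genes were called, 19.9% higher and 20.7% lower. In bulk RNA, fewer cells that express Lrrk2 and less Lrrk2 RNA per cell cannot be told apart.

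The WT call was lost, with nearly the same change, when 1 I/R library was left out: the adjusted p was 0.0643 at -2.21 without WT I/R 1 and 0.0545 at -2.33 without WT I/R 2. The KO value turned on which KO sham libraries were kept. It was 0.28 without KO sham 2, the KO sham library with most Lrrk2. Without KO sham 1 and KO sham 3 together it was -1.77. That fit keeps KO sham 2 as the only KO sham library, so a lower value followed from the choice. An exact two-sided permutation test of the I/R difference in mean log2 CPM within genotype gave -1.40 and p = 0.035 over 400 arrangements. Between 3 and 3 libraries the smallest exact p is 0.1, and the exact p was 0.7 in KO kidneys and 0.1 in WT kidneys.

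The genotype label did not separate Lrrk2 levels. The log2 change was -1.16 between KO sham and WT sham (SE 0.55, 95% interval -2.35 to 0.03, adjusted p 0.809) and 0.41 between KO I/R and WT I/R (SE 0.54, 95% interval -0.77 to 1.59, adjusted p 1). Averaged over treatment it was -0.37 (SE 0.38, 95% interval -1.21 to 0.46), and an exact permutation test of KO against WT within treatment gave p = 0.27. Without KO I/R 3 the I/R value was -0.09. Without KO sham 1 and KO sham 3, which leaves KO sham 2 alone in its group, the average was 0.13. The interval for sham reaches a log2 change of -2.35, so equal levels were not shown. Of all genes, edgeR called 0 (0%) between KO sham and WT sham, with 285 genes at an unadjusted p under 0.05 and 28 called by DESeq2. It called 0 (0%) between KO I/R and WT I/R, with 140 unadjusted and 2 by DESeq2, and 0 (0%) in the interaction, with 265 unadjusted and 14 by DESeq2. Averaged over treatment it called 0 (0%), with 190 unadjusted and 9 by DESeq2. Of the limma fits to FPKM values, the one with a pseudocount of 0.1 called 13, 2, 7 and 9 genes in these 4 comparisons.

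Lrrk2 spread more among the libraries labelled KO, a difference that was not itself tested. The highest library exceeded the lowest by 2.59 times in KO I/R, 1.39 times in WT I/R, 5.75 times in KO sham and 1.68 times in WT sham, in CPM. The SD of log2 CPM was 0.70 in KO I/R, 0.23 in WT I/R, 1.29 in KO sham and 0.38 in WT sham. Medians over the tested genes were 0.47, 0.20, 0.50 and 0.31 in those 4 groups. In KO sham 9.11% of tested genes had a larger SD than Lrrk2, against 26.1% in KO I/R, 43.5% in WT I/R and 37.7% in WT sham. The 2 low KO sham libraries were also the one with the high mitochondrial share and the one with the high Havcr1 and Lcn2 and the low Acsm3. The part of these properties in the Lrrk2 values was not tested.

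The aim was to see which genes rose and fell with Lrrk2 from library to library. Correlations of log2 CPM were taken within the 6 I/R and within the 6 sham libraries. These levels were not correlated across both sets, because I/R separates them. No gene passed the adjusted test in either set. In I/R, 449 of 5042 genes reached an exact unadjusted p under 0.05, 228 of them with a positive r, and the smallest adjusted p was 0.400. In sham, 611 of 5040 did, 379 of them positive, and the smallest adjusted p was 0.354. Each set mixes WT and KO libraries, so a difference between the genotype groups can enter these r and p values. A further version took out the mean of each group and correlated the deviations over all 12 libraries. Permutation within groups, over 1296 arrangements, gave 354 genes with an unadjusted p under 0.05. The smallest adjusted p was 0.613, so no gene passed there either. With 6 libraries the smallest p for an r is 0.00139, from 720 pairings. Every r below is therefore a description of these libraries. Of 5035 genes with an r in both sets, 32.1% were positive in both and 31.1% negative in both.

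The 8 genes most like Lrrk2, ranked by the smaller of their r values in the I/R and sham sets, were Adhfe1, Nudt12, Fbxo8, Cyp51, Mtrex, Slc25a21, Aass and Entpd5. Adhfe1, a mitochondrial hydroxyacid-oxoacid transhydrogenase, was at 120, 92.1 and 195 CPM in KO I/R, 96.6, 101 and 132 CPM in WT I/R, 583, 945 and 278 CPM in KO sham, and 1036, 984 and 905 CPM in WT sham. Its order over the 6 I/R libraries was the same as that of Lrrk2, and in sham its low libraries were again KO sham 1 and KO sham 3. Its r was 0.98 in I/R (Spearman rho 1, exact permutation p 0.00139, adjusted p 0.400) and 0.95 in sham (rho 0.77, exact permutation p 0.0153, adjusted p 0.373). Without the libraries farthest from the Lrrk2 median, r was 0.90 in I/R (without KO I/R 3 and KO I/R 2) and 0.24 in sham (without KO sham 3 and KO sham 1), so the sham relation rests on those 2 libraries. Adhfe1 fell after I/R by 2.15 on the log2 scale in KO kidneys (SE 0.40, adjusted p 0.00367) and fell by 3.15 in WT kidneys (SE 0.42, adjusted p 0.000618).

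Nudt12, a peroxisomal NAD(P)H diphosphatase, was at 49.8, 34.2 and 82.0 CPM in KO I/R, 41.4, 37.1 and 55.1 CPM in WT I/R, 103, 181 and 92.8 CPM in KO sham, and 219, 140 and 177 CPM in WT sham. Its r was 0.94 in I/R (rho 0.94, exact permutation p 0.00972, adjusted p 0.429) and 0.97 in sham (rho 0.94, exact permutation p 0.00278, adjusted p 0.354). Without the farthest 2 libraries r was 0.69 in I/R, below the 0.90 of Adhfe1, and 0.96 in sham. Nudt12 also fell after I/R, by 1.18 in KO kidneys (SE 0.36, adjusted p 0.0319) and fell by 2.0 in WT kidneys (SE 0.36, adjusted p 0.00319).

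Cyp51, the sterol demethylase of cholesterol synthesis, was at 75.2, 66.2 and 98.6 CPM in KO I/R, 70.9, 70.9 and 69.5 CPM in WT I/R, 616, 882 and 386 CPM in KO sham, and 955, 796 and 1040 CPM in WT sham. The 3 WT I/R libraries were nearly equal, so its r of 0.94 in I/R came from the KO I/R libraries, and it was 0.03 without KO I/R 3 and KO I/R 2. In sham r was 0.97, and 0.79 without the farthest 2. Cyp51 fell after I/R by 2.97 on the log2 scale in KO kidneys (SE 0.30, adjusted p 0.000148) and fell by 3.72 in WT kidneys (SE 0.31, adjusted p 6.23e-05). Slc25a21, the mitochondrial oxodicarboxylate carrier, had r of 0.93 in I/R and 0.97 in sham, and of 0.53 and 0.18 without the farthest 2. It fell by 1.85 in KO kidneys and fell by 2.47 in WT kidneys (SE 0.35 and 0.36, adjusted p 0.00389 and 0.000884).

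The remaining 4 moved less with I/R. Aass, the first enzyme of lysine breakdown, had r of 0.94 in I/R and 0.93 in sham, and kept 0.83 and 0.69 without the farthest 2. Entpd5, a nucleotide phosphatase of the endoplasmic reticulum, had r of 0.94 and 0.93, with 0.77 and 0.01 without them. Mtrex, an RNA helicase of the nuclear exosome, had r of 0.93 and 0.98, with 0.49 and 0.46, and Fbxo8, an F-box protein, had r of 0.94 in both, with 0.90 and 0.32. Over the 8 genes the adjusted permutation p ranged from 0.400 to 0.513 in I/R and from 0.354 to 0.373 in sham. Called lower after I/R were 4 of the 8 in KO kidneys and 6 of the 8 in WT kidneys, where 11.5% and 10.7% of all tested genes were called lower. Those counts share their libraries with the correlations, and the Lrrk2 change uses the same sham libraries.

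**Figure D2:**
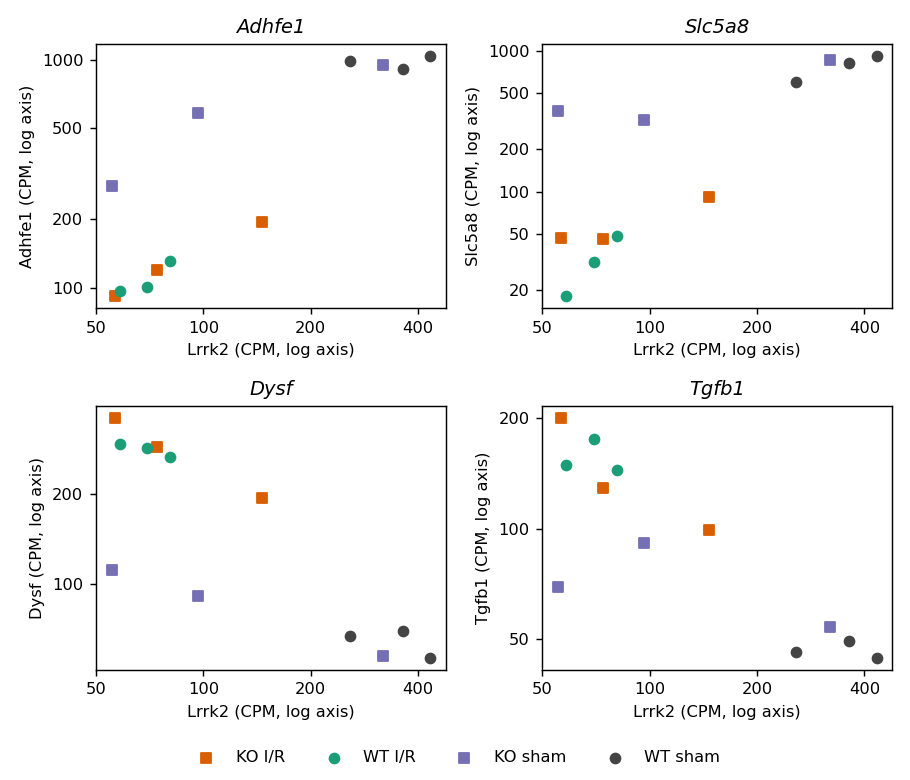
Each library's Lrrk2 level (CPM, log axis) against that of Adhfe1, Slc5a8, Dysf and Tgfb1 (CPM, log axes); squares are KO and circles WT libraries, coloured by group. Adhfe1 and Slc5a8 are high where Lrrk2 is high and Dysf and Tgfb1 are low there, with KO sham 2 beside the WT sham libraries and KO sham 1 and KO sham 3 toward the lower Lrrk2 levels.

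Among the same 3740 genes, those that ran most opposite to Lrrk2 were Dysf, Sipa1, Lamb2, Rn7sk, Ercc1 and Dlc1. Dysf, the membrane repair protein dysferlin, was at 289, 361 and 195 CPM in KO I/R, 296, 286 and 267 CPM in WT I/R, 91.6, 57.7 and 111 CPM in KO sham, and 56.7, 66.9 and 69.9 CPM in WT sham. It was highest where Lrrk2 was lowest within I/R (KO I/R 2) and within sham (KO sham 3). Its r was -0.95 in I/R (rho -0.94, exact permutation p 0.00278, adjusted p 0.400) and -0.96 in sham (rho -0.83, exact permutation p 0.00972, adjusted p 0.354), and -0.83 and -0.44 without the farthest 2. Dysf rose after I/R by 1.70 on the log2 scale in KO kidneys (SE 0.28, adjusted p 0.0021) and by 2.13 in WT kidneys (SE 0.29, adjusted p 0.00063). Ercc1, a DNA repair nuclease subunit whose promoter window is printed above, had r of -0.96 in I/R and -0.91 in sham, and kept -0.82 and -0.76 without the farthest 2. It was at 164, 223 and 86.8 CPM in KO I/R, 179, 146 and 132 CPM in WT I/R, 31.0, 26.9 and 57.1 CPM in KO sham, and 23.6, 25.8 and 24.4 CPM in WT sham.

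Ercc1 rose by 2.05 in KO kidneys and by 2.63 in WT kidneys (SE 0.36 and 0.37, adjusted p 0.00272 and 0.000794), and the small nuclear RNA Rn7sk rose by 1.72 and 2.71 (SE 0.56 and 0.58, adjusted p 0.0429 and 0.00718). Rn7sk had r of -0.91 in I/R and -0.95 in sham, and -0.82 and -0.90 without the farthest 2. Sipa1, which switches off Rap GTPases, had r of -0.95 and -0.92, and Dlc1 had r of -0.94 and -0.89. Lamb2, a laminin chain of the glomerular and tubular basement membrane, had r of -0.96 in I/R and -0.92 in sham, but 0.11 in sham without KO sham 3 and KO sham 1. Called higher after I/R were 3 of these 6 in KO kidneys and 3 of 6 in WT kidneys, with 11.9% and 10.2% of all tested genes called higher. Those counts, too, share their libraries with the correlations by which the 6 genes were picked.

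Late (S3) proximal tubule genes mostly went up and down with Lrrk2. The S3 segment is the straight end of the proximal tubule in the outer medulla. Of 17 S3 genes listed, 9 were in the table and all 9 were tested. A positive r with Lrrk2 in both sets was found for 8 of the 9, against 32.1% of all tested genes. Their median r was 0.57 in I/R and 0.69 in sham, against 0.04 and -0.02 over all tested genes, and it was 0.80 and 0.58 without the farthest 2 libraries. Leaving out 1 library at a time, between 6 and 8 of the 9 were positive in I/R and between 6 and 9 in sham, with 6 in sham without KO sham 3.

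Slc5a8, the sodium-coupled lactate transporter of this segment, was at 45.9, 46.9 and 92.3 CPM in KO I/R, 18.2, 32.0 and 48.8 CPM in WT I/R, 322, 857 and 371 CPM in KO sham, and 915, 597 and 810 CPM in WT sham. Its r with Lrrk2 was 0.79 in I/R and 0.94 in sham, and 0.98 and 0.89 without the farthest 2, so it held in the 4 libraries nearest the Lrrk2 median. Slc5a8 fell after I/R by 3.06 on the log2 scale in KO kidneys (SE 0.48, adjusted p 0.00157) and fell by 4.55 in WT kidneys (SE 0.51, adjusted p 0.000294). Acsm3, a mitochondrial acyl-CoA synthetase, had r of 0.84 in I/R and 0.76 in sham, where KO sham 1 was at 4.03 CPM and KO sham 3 at 177 CPM. Without those 2 libraries its sham r was 0.95. In I/R its Spearman rho was 0.31, with KO I/R 3 highest at 408 CPM, and r was 0.64 without the farthest 2. Slc27a2, a very long chain acyl-CoA synthetase and fatty acid transporter, had r of 0.89 in I/R and 0.69 in sham, and 0.91 and 0.58 without the farthest 2. At the other end Aadat, an aminotransferase, had r of 0.28 and 0.09, and Slc7a12, an amino acid transporter, had r of -0.30 and -0.17.

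The S3 genes were called lower after I/R in 5 of 9 in KO kidneys and in 7 of 9 in WT kidneys, against 11.5% and 10.7% of all tested genes, and none was called higher. Their summed level was 13477 to 18405 CPM in KO I/R, 7661 to 12925 CPM in WT I/R, 16469 to 41995 CPM in KO sham and 30410 to 45921 CPM in WT sham. KO sham 1 and KO sham 3, the sham libraries with least Lrrk2, also had the lowest S3 sums of the 6, at 16469 and 25712 CPM. The S3 list holds Acsm3 and Slc7a12, the genes known to differ by sex that stood apart in KO sham 1. In KO sham 3 mitochondrial genes took 24.7% of the counts. The part of these properties in the S3 sums was not tested. Whether the number of S3 cells in a sample set the Lrrk2 level was not tested either.

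**Figure D3:**
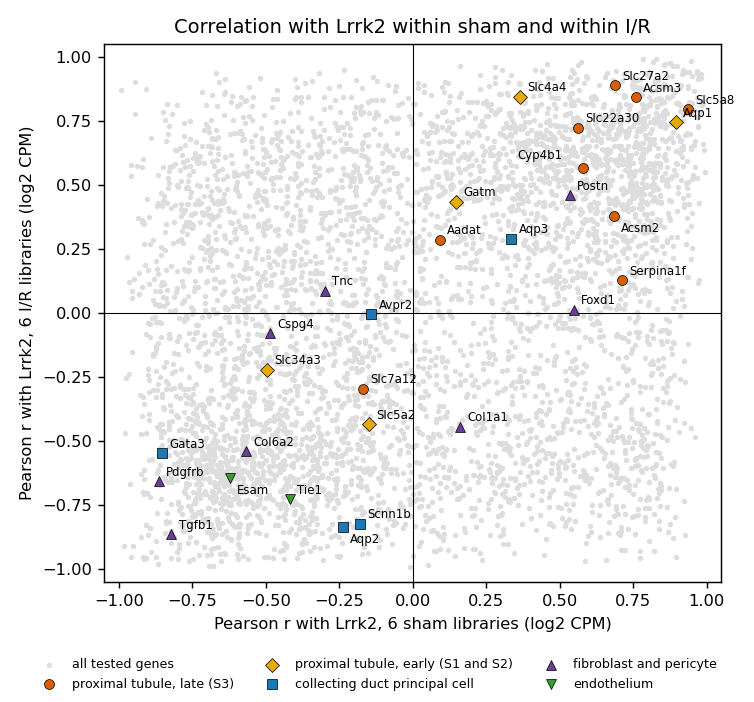
Pearson r with Lrrk2 over the 6 I/R libraries (y axis) and over the 6 sham libraries (x axis) for all tested genes (grey) and for 5 marker lists (coloured, each gene named). S3 proximal tubule genes fill the upper right, with 8 of 9 positive in both sets, and Tgfb1, Pdgfrb, Gata3 and the endothelial genes Esam and Tie1 lie in the lower left.

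The early proximal tubule (S1 and S2) gave a mixed picture, with 3 of its 5 tested genes positive in both sets and 2 negative in both. Its median r was 0.43 in I/R and 0.15 in sham, and -0.14 and -0.09 without the farthest 2 libraries. Aqp1, a constitutive water channel, had r of 0.74 in I/R and 0.89 in sham, but -0.61 in sham without KO sham 3 and KO sham 1, the sham libraries with least Aqp1, at 1327 and 2051 CPM against 2765 to 3614 CPM in the other 4. Slc4a4, the basolateral bicarbonate exit of this segment, had r of 0.84 and 0.37, and Gatm, which makes the creatine precursor, had r of 0.43 and 0.15. Slc5a2, the glucose transporter SGLT2, ran the other way at -0.44 and -0.15, as did the phosphate transporter Slc34a3 at -0.22 and -0.50.

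Beyond the proximal tubule most segment genes had negative or mixed r values. In the collecting duct principal cells 4 of 5 tested genes were negative in both sets, with median r of -0.55 in I/R and -0.18 in sham. Gata3, a transcription factor of these cells, had r of -0.55 in I/R and -0.85 in sham, and Scnn1b, a subunit of the epithelial sodium channel, had -0.82 and -0.18. Aqp2, the vasopressin-regulated water channel, had -0.84 in I/R and -0.24 in sham, and 0.10 and -0.63 without the farthest 2. The principal cell signs were not stable: leaving out WT sham 1, 4 of the 5 were positive in sham. In intercalated cells 4 of 7 were negative in both sets (medians -0.29 and -0.30), with Rhcg, an ammonia channel, at -0.47 and -0.75. In the thick ascending limb 3 of 5 were negative in both and none positive in both (medians -0.42 and -0.06). Both tested thin limb genes were negative in both sets (medians -0.37 and -0.41), but their I/R median was 0.42 without the farthest 2. The 3 distal convoluted tubule genes were mixed. Klhl3, an adaptor of the ubiquitin ligase that lowers WNK kinases, had r of 0.42 in I/R and -0.81 in sham, Slc8a1, a sodium-calcium exchanger, had 0.51 and 0.16, and Kcnj16, a basolateral potassium channel subunit, had -0.30 and -0.82. Without the farthest 2 libraries the sign turned for each of the 3 in both sets. Over all 36 tested nephron genes 15 were positive in both and 17 negative in both, so the nephron as a whole did not lean to either side.

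Stromal genes lay mostly on the negative side. Of 10 tested stromal genes 6 were negative in both sets and 2 positive in both, with median r of -0.49 in I/R and -0.45 in sham, and of -0.30 and -0.13 without the farthest 2 libraries. Tgfb1, a growth factor of fibrosis that many cell types make, was at 129, 201 and 99.0 CPM in KO I/R, 149, 176 and 145 CPM in WT I/R, 91.6, 54.0 and 69.2 CPM in KO sham, and 44.5, 46.1 and 49.4 CPM in WT sham. Its r was -0.86 in I/R and -0.82 in sham, but -0.24 and -0.22 without the farthest 2, so it rests on KO I/R 2, KO I/R 3, KO sham 1 and KO sham 3. Pdgfrb, a receptor that marks pericytes and fibroblasts, had r of -0.66 and -0.86, and 0.36 in sham without the farthest 2. The endothelial genes Esam and Tie1 had r of -0.64 and -0.73 in I/R and of -0.62 and -0.42 in sham. Without the farthest 2 libraries their medians were positive, at 0.44 in I/R and 0.20 in sham, with Esam at 0.92 in I/R and Tie1 at 0.59 in sham.

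On the positive side of the fibroblast and pericyte list were Postn, a matrix protein of activated fibroblasts, with r of 0.46 in I/R and 0.53 in sham, and Foxd1, a transcription factor of stromal progenitors, with 0.01 and 0.55. Without the farthest 2 libraries Postn had 0.42 and -0.10, and Foxd1 was negative in both sets, at -0.84 and -0.80. Tnc, a matrix protein of wounded tissue, had 0.09 and -0.30. After I/R 3 of the 8 fibroblast and pericyte genes were called higher in KO kidneys and 6 of 8 in WT kidneys, against 11.9% and 10.2% of all tested genes, and none was called lower. Tgfb1 rose by 1.0 on the log2 scale in KO kidneys (SE 0.28, adjusted p 0.0234) and by 1.75 in WT kidneys (SE 0.28, adjusted p 0.00178). Tnc rose by 1.87 and 3.81 (SE 0.48 and 0.52, adjusted p 0.0158 and 0.000672). The summed fibroblast and pericyte level was 599 to 817 CPM in KO I/R, 919 to 1199 CPM in WT I/R, 374 to 511 CPM in KO sham and 294 to 391 CPM in WT sham, the reverse of the group order of Lrrk2 in WT kidneys.

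**Figure D4:**
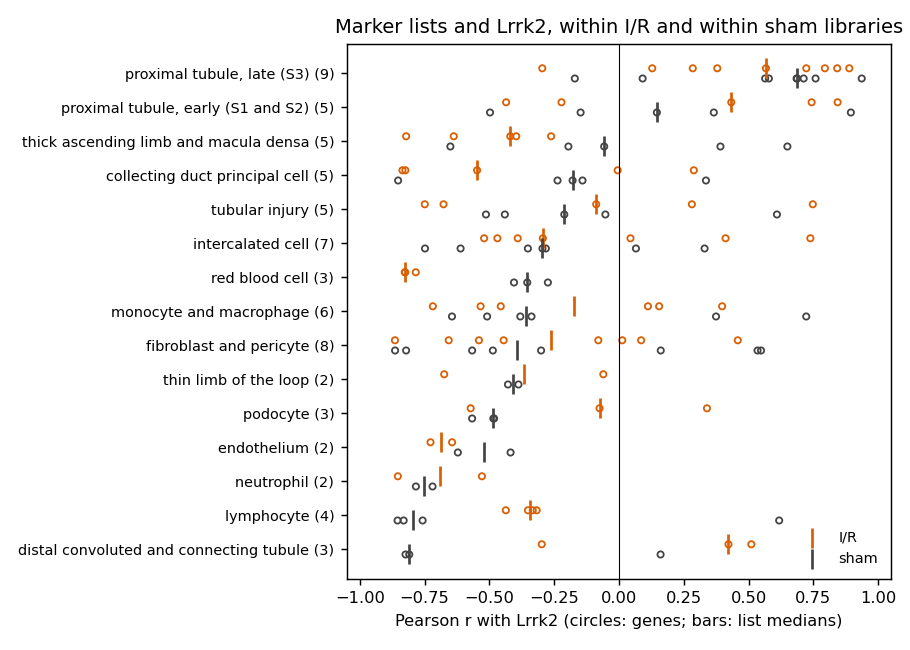
Pearson r with Lrrk2 (x axis) for each tested gene of 15 marker lists (circles; number of genes in parentheses) and the list medians (bars), within I/R (orange) and within sham (grey). The S3 list has medians of 0.57 and 0.69, the endothelial list -0.69 and -0.52 (0.44 and 0.20 without the farthest 2 libraries) and the neutrophil list -0.69 and -0.75.

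Neutrophil and red cell markers had negative r values, and macrophage and injury markers were mixed. The neutrophil genes Csf3r and Mmp8 had r of -0.85 and -0.53 in I/R and of -0.78 and -0.72 in sham, at levels of 2.01 to 32.7 CPM in I/R and at most 7.51 CPM in sham. All 3 tested globin genes were negative in both sets, with medians of -0.82 in I/R and -0.35 in sham, and of 0.07 and 0.32 without the farthest 2. Of 6 monocyte and macrophage genes 2 were negative in both and 1 positive in both. The 5 tested injury genes had medians of -0.09 in I/R and -0.21 in sham, with none positive in both sets and 2 negative in both. Among them Lcn2, an injury protein of the distal nephron, had r of -0.68 in I/R and -0.51 in sham.

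The LRRK2 pathway genes did not move as a block. Of 65 genes listed as substrates, effectors, partners or lysosomal genes linked to LRRK2, 22 were tested, and their median r with Lrrk2 was 0.04 in I/R and 0.34 in sham, with 7 positive in both sets and 5 negative in both. After I/R 5 of the 22 were called in KO kidneys and 5 of the 22 in WT kidneys, against 23.5% and 20.9% of all tested genes. None was called between KO and WT in sham or in I/R, where 0 (0%) of all tested genes were called. The paralog Lrrk1 was not analysed here.

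Among the kinase's substrates, Rab10 had r of 0.55 in I/R and 0.76 in sham, at 574, 336 and 510 CPM in KO I/R, 430, 413 and 416 CPM in WT I/R, 366, 367 and 225 CPM in KO sham, and 366, 321 and 399 CPM in WT sham. Its I/R changes of 0.57 in KO and 0.21 in WT kidneys missed the threshold (SE 0.25 each, adjusted p 0.126 and 0.574). Rab29, which recruits LRRK2 to membranes, had r of 0.20 and -0.35 and changes of 0.13 and 0.64 (SE 0.30 each, adjusted p 0.784 and 0.148). Rab3d, a Rab of secretory vesicles, rose after I/R in KO kidneys by 1.72 (SE 0.47, adjusted p 0.0222), with -0.06 in WT kidneys (SE 0.46, adjusted p 0.933). It was at 82.2, 57.7 and 31.6 CPM in KO I/R, 31.9, 29.1 and 39.4 CPM in WT I/R, 22.1, 17.4 and 12.3 CPM in KO sham, and 29.9, 15.4 and 59.2 CPM in WT sham, so the KO groups did not overlap and the WT groups did. Rilpl2, an effector that binds phosphorylated Rabs, rose in KO kidneys by 0.70 (SE 0.23, adjusted p 0.0427) and had 0.39 in WT kidneys (SE 0.23, adjusted p 0.233).

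Of LRRK2's binding partners, Sfn (14-3-3 sigma) rose most. It was at 373, 662 and 292 CPM in KO I/R, 623, 425 and 477 CPM in WT I/R, 90.5, 23.2 and 22.5 CPM in KO sham, and 25.3, 44.1 and 32.7 CPM in WT sham. Its I/R change was 3.28 in KO kidneys (SE 0.54, adjusted p 0.00205) and 3.90 in WT kidneys (SE 0.56, adjusted p 0.000859), and its r with Lrrk2 was -0.88 in I/R and -0.25 in sham. Bag2, a co-chaperone, rose by 2.46 and 1.79 (SE 0.35 and 0.34, adjusted p 0.000986 and 0.00416). Hsp90ab1, a chaperone that stabilises LRRK2, had r of -0.29 in I/R and 0.85 in sham and no called change.

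Among other Parkinson disease genes, Pink1, a kinase of damaged mitochondria, had a change of -0.64 in KO kidneys (SE 0.25, adjusted p 0.0861) and fell by 1.0 in WT kidneys (SE 0.25, adjusted p 0.0158). Gpnmb, which rises in lysosomal stress and in macrophages, had a change of 2.24 in KO kidneys (SE 0.79, adjusted p 0.059) and rose by 3.94 in WT kidneys (SE 0.83, adjusted p 0.00663), at low levels of 2.89 to 7.94 CPM in KO I/R, 8.19 to 19.0 CPM in WT I/R, 0.387 to 2.26 CPM in KO sham and at most 1.47 CPM in WT sham. Psap, the precursor of lysosomal saposins, had r of 0.82 in I/R and 0.91 in sham, but -0.19 in sham without KO sham 3 and KO sham 1. The differences between KO and WT responses of these genes were not called, in a comparison where 0 (0%) of all tested genes were called.

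**Figure D5:**
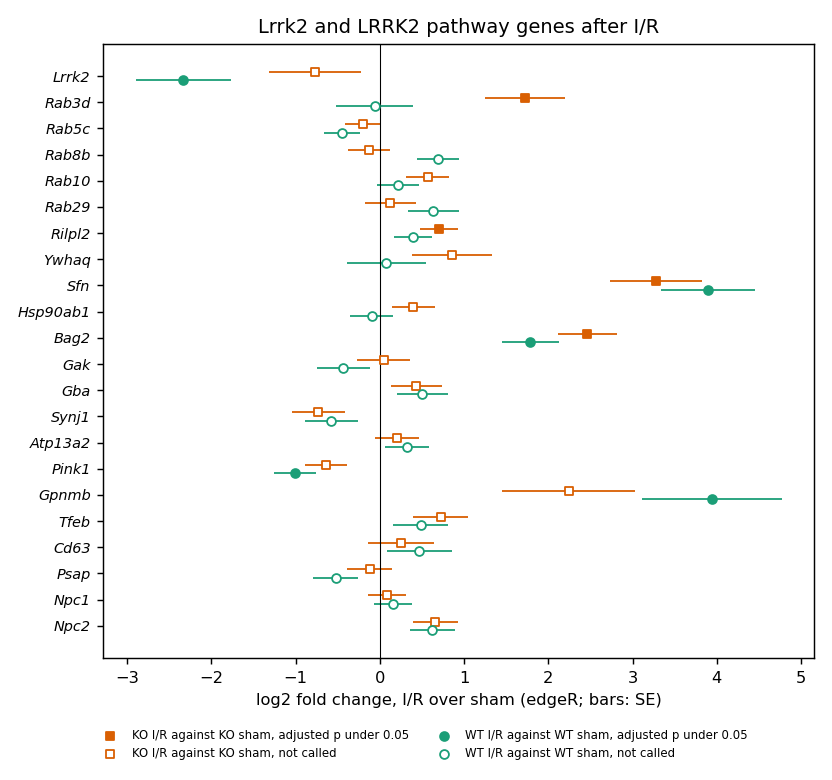
Log2 fold change, I/R over sham, of Lrrk2 and tested pathway genes in KO kidneys (squares, above) and WT kidneys (circles, below); bars are standard errors and filled symbols have an adjusted p under 0.05. Sfn and Bag2 are higher in both genotypes, while Lrrk2 itself is called in WT kidneys.

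No tested neighbour of Lrrk2 on chromosome 15 was called between KO and WT in sham or in I/R, where 0 (0%) of all tested genes were called. Equal levels of the neighbours were not shown. Of 14 genes of the table within 2 Mb of Lrrk2, 9 had no count in any library, 2 had too few counts to test, and 3 were tested. Cpne8, a calcium-dependent membrane-binding protein, was at 28.6 to 36.3 CPM in KO I/R, 26.1 to 29.8 CPM in WT I/R, 11 to 28.4 CPM in KO sham and 9.81 to 17.5 CPM in WT sham. Its KO over WT change was 0.23 in I/R and 0.66 in sham (SE 0.35 each, adjusted p 1 and 0.809). Yaf2, a partner of polycomb proteins, had -0.10 and -0.36 (SE 0.27 each, adjusted p 1 and 0.875), with r to Lrrk2 of 0.42 in I/R and 0.93 in sham. Zcrb1, an RNA-binding protein of the minor spliceosome, had 0.16 and 0.19 (SE 0.35 each, adjusted p 1 and 0.955), with r of -0.45 and -0.57.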

How the data were processed

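Kidney RNA from 12 libraries (3 per group) was sequenced as paired ends after TruSeq preparation, per the labels. The submitters' processing notes name HISAT2 and StringTie; versions, genome build, counting rules and strand were given in none of the sources used. The authors deposited 1 table with whole-number counts and FPKM per gene. CPM was computed from the deposited counts with TMM factors. Counts were tested with edgeR 4.0.16 (quasi-likelihood, 4-group model, filterByExpr at 10 counts, Benjamini-Hochberg over 5048 genes; R 4.3.3), with DESeq2 1.42.0 and limma 3.58.1 on log2(FPKM + 0.1) or log2(FPKM + 1) as alternatives. Code was tested on simulated data. Correlations used log2 CPM (prior count 2) with exact permutation p over 6 libraries, adjusted over all genes. Deviations from the group means were also correlated over all 12 libraries, with 1296 arrangements within groups. Reads of KO I/R 2 were recovered from FPKM (99.9% of 6716 genes whole within 0.05 reads).

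Named were the 8 genes most like Lrrk2 and the 6 most opposite, among 3740 genes with a mean of at least 5 CPM. Genes with predicted symbols, such as Gm followed by digits or ending in Rik, were left out of that ranking. Also named were up to 3 highest and 2 lowest of each list, members of the pathway lists that were called, tested neighbours within 2 Mb, and markers beside libraries that stood apart. Others are singled out after their values were seen. The gene and lists were chosen with earlier results of these data known. 1 pathway gene that was tested is counted but not reported here.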

Additional observations from a re-analysis of the deposited data

How the results depend on the processing

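Over the 7 Lrrk2 comparisons, 165 values kept the direction and the side of the threshold under the other normalizations, filters, tools and library choices, and 7 did not. The exceptions beyond leaving out 1 library were these. The I/R change averaged over genotype was -1.23 (adjusted p 0.0525) with limma on log2(FPKM + 0.1). Without KO sham 1 and KO sham 3 together, KO sham 2 was alone in its group, so only effect sizes are given. There KO I/R against KO sham, counted among the 7 for its side of the threshold, was -1.77. KO against WT averaged over treatment was 0.13. Leaving out 1 library at a time, the Lrrk2 change ranged from -2.51 to -2.15 between WT I/R and WT sham, -1.26 to 0.28 between KO I/R and KO sham, -2.20 to -0.76 between KO sham and WT sham, -0.0931 to 0.66 between KO I/R and WT I/R, 1.06 to 2.61 for the interaction, -1.80 to -1.02 for I/R averaged over genotype and -0.90 to -0.17 for KO against WT averaged over treatment. The causes were not tested. Genes called ranged from 527 (without WT I/R 1) to 1995 (the contrast's groups alone) around 1057 in WT kidneys, and from 364 (the contrast's groups alone) to 1459 (DESeq2) around 1185 in KO kidneys. Of the neighbours, Cpne8 was -0.35 in KO sham against WT sham without KO sham 1 and KO sham 3, and Zcrb1 was -0.38. Leaving out 1 library, Zcrb1 in sham ranged from -0.40 to 0.42. In KO I/R against WT I/R, Yaf2 was 0.0481 and 0.0438 with limma at pseudocounts of 0.1 and 1 and 0.0828 with recovered reads, and ranged from -0.29 to 0.13 with 1 library left out. There Zcrb1 was -0.0508 and -0.0466 in the limma fits, -0.0165 with recovered reads and -0.0191 with whole-library scaling, and ranged from -0.0934 to 0.30 with 1 library left out. All 8 genes most like Lrrk2 kept the sign of r under every alternative tried. Without the 2 libraries farthest from the Lrrk2 median, however, r was 0.03 for Cyp51 in I/R and 0.01 for Entpd5 in sham. Of the 6 most opposite, Lamb2 alone changed sign, in sham without KO sham 1 and KO sham 3. Both sets of genes were picked by their r in these same libraries, so the kept signs are not independent support.

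Same-numbered libraries deviated together in some groups and not in others: over 18 pairs the correlation of deviations ran from -0.37 to 0.30 and was over 0.1 in 5. It was positive for every number between KO I/R and WT I/R (0.07 to 0.20). The same held between KO I/R and WT sham (0.09 to 0.30). In no pair of groups was it over 0.1 for every number. Of 12 libraries, 6 correlated best with their own number. How many would do so without any pairing was not worked out, so pairing was not shown. A replicate block left the Lrrk2 change at -2.37 (adjusted p 0.0255) for WT I/R against WT sham, -0.70 for KO I/R against KO sham and -1.54 (adjusted p 0.0199) averaged over genotype, with 1031 genes called in WT kidneys in place of 1057.

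Sets of 6 libraries limit what an r can show, and 3 per group limit the genotype comparison to large changes. Intervals and folds cover the spread between these libraries. Counting error alone is small for Lrrk2, which had at least 207 counts in each library.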

Other observations

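The next 12 genes on either side, chosen after their values were seen, had smaller r values of 0.88 to 0.92 on the positive side and larger r values of -0.88 to -0.82 on the negative side. On the positive side, Pcca, a subunit of propionyl-CoA carboxylase, had r with Lrrk2 of 0.95 in I/R and 0.92 in sham, and 0.75 and 0.69 without the 2 libraries farthest from the Lrrk2 median. It fell after I/R by 1.18 on the log2 scale in KO kidneys and fell by 1.63 in WT kidneys (edgeR adjusted p 0.0133 and 0.00306). Mccc1, a subunit of the leucine pathway's carboxylase, had r of 0.97 and 0.89, and 0.90 and 0.83 without the farthest 2. It fell by 1.43 in KO kidneys and fell by 2.22 in WT kidneys (adjusted p 0.0233 and 0.00345). Gstz1, an enzyme of tyrosine breakdown, had r of 0.88 and 0.91, with -0.43 in sham without the farthest 2. Itfg1, a membrane protein, kept 0.99 and 0.78 without the farthest 2.

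On the negative side, Itga3, an integrin chain of epithelial cells, had r of -0.85 in I/R and -0.82 in sham, but -0.48 and -0.05 without the farthest 2. It rose after I/R by 1.32 in KO kidneys and by 1.92 in WT kidneys (adjusted p 0.00461 and 0.000683). Cdc42ep5, an effector of the GTPase Cdc42, had r of -0.98 and -0.87, and kept -0.94 and -0.63 without the farthest 2. Maged2, a protein linked to salt transport in the kidney, had r of -0.90 and -0.82, and -0.43 and -0.92 without them. Casp4, an inflammatory caspase, had r of -0.83 and -0.91, but -0.14 and 0.90 without the farthest 2.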
